A study of Mus musculus with 6 samples.

Results

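The lysyl oxidase family of the mouse has 5 genes, Lox, Loxl1, Loxl2, Loxl3 and Loxl4, and all of them were represented on the arrays, by 9 of the 56605 different probes (5 of 23462 named genes). The family was chosen by the measured fall of Lox and Loxl1 in the Islr knockout, so every difference between the genotypes given for its members is a description of the values that led to the choice, and none of them is tested. Colonic RNA of male mice, 3 of them controls and 3 lacking Islr, was hybridised to single-colour Agilent arrays, 1 for each sample. According to the sample source, the animals of both groups drank 3.5% dextran sulfate sodium, which injures the colonic epithelium, for 5 days and then recovered for 1 day; another label field says that there was no treatment. Strain, age, the promoter or cell type in which Islr was deleted and the alleles of the controls are not given in the labels. The series text speaks of flow separation without naming a sorted population.

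Lysyl oxidases are secreted, copper-dependent amine oxidases that turn lysine and hydroxylysine residues of collagens and elastin into reactive aldehydes. The aldehydes condense into the covalent cross-links that give fibres their strength. In the gut wall these enzymes are made mostly by fibroblasts and other mesenchymal cells, and the family is known for its part in scar formation and in the matrix of healing wounds. Lox and Loxl1 carry a propeptide that tolloid-like proteinases such as Bmp1 remove, whereas Loxl2, Loxl3 and Loxl4 carry scavenger receptor cysteine-rich domains in front of the shared catalytic domain.

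Among the family, only the promoter of Loxl4 was read from the promoter table of RefSeq, in a search that did not cover every chromosome. The 250 bases before its annotated start are shown because Loxl4 was the only member that this search returned. They lie at chr19:42612807-42613056 on the minus strand of GRCm38.p6, and capitals mark GGGCGG, the core of the GC box.
Loxl4: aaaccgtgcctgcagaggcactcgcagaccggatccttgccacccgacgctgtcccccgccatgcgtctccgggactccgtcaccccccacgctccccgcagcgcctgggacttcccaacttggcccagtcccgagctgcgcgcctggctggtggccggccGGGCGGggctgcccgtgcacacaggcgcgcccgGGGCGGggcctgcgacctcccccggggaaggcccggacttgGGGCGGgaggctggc
GGGCGG, searched on both strands and chosen after the sequence had been seen, occurred 3 times, first bases at -89, -56 and -15 from the start; 32.7% of the 32851 promoters of this length in the table hold it. The window is 76.0% G and C, against a median of 52.4% over those promoters. ACGTG (held by 16.6% of promoters), GGAATG (12.6%), TGANTCA (6.75%), CAGACA (17.1%) and TATAAA (12.4%) had no match on either strand; no motif overlapped another.

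The 75th percentile of the signal lay between 4910.5 and 7110.5 intensity units on the 6 arrays, where 69.4% to 75.4% of spots exceeded background clearly. Signals were therefore set relative to that percentile on a log2 scale, on which 0 is the 75th percentile of an array. Each genotype filled a row of the slide, so slide row and genotype cannot be told apart. Whether the members of a litter or batch were shared is not stated, and p-values measure only the spread between these arrays. Islr, which encodes a secreted leucine-rich repeat protein, read 18838, 16768 and 15157 on the control arrays, and on the knockout arrays 1862, 3057 and 2327. All knockouts were far below all controls, and the fitted difference, which left out the outlier spot of control replicate 1, was -2.44 (SE 0.21, limma adjusted p 0.0171). In a bulk sample, fewer cells of a type and less RNA per cell cannot be told apart.

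Lox, the founding member and a cross-linker of both fibrillar collagen and elastin, was 8.93-fold lower in the knockout at its brighter probe (A_55_P2911063). In the order of replicate number, which follows the order of the samples and pairs none of them, the controls read 13547, 12214 and 8777 and the knockouts 529, 1556 and 1385. Every knockout lay far below every control. On the log2 scale relative to the array the controls averaged 0.77 ± 0.33 and the knockouts -2.39 ± 0.72 (SD, n = 3 each), a difference of -3.16 with a standard error of 0.38. A second Lox probe (A_66_P138929) gave 7721, 5573 and 2776 in controls and 52.4, 336 and 247 in knockouts. There the signal of knockout replicate 1 was not well above background and the spot of control replicate 1 was marked as an outlier by the scanner software and left out. The difference at this probe was -4.28 (SE 0.76, 2 controls and 3 knockouts). Both probes thus placed all knockouts below all controls, and the size of the fall is uncertain at the dimmer one.

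Loxl1 associates with fibulin-5 and maintains elastic fibres in adult tissue. Its only probe (A_51_P304239) gave 10539, 13978 and 10708 in controls; the knockouts read 1918, 4409.8 and 4308. The groups did not overlap, and knockout replicates 2 and 3 were close to each other while replicate 1 was lower. The controls averaged 0.81 ± 0.15 and the knockouts -0.73 ± 0.55 (SD, n = 3 each), a difference of -1.53 (SE 0.29), or 2.89-fold.

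Loxl2 acts on type IV collagen of basement membranes as well as on fibrillar collagens. At the probe measured on all arrays (A_55_P2131348) the controls read 14513, 13737 and 13238, and the knockouts 1828, 5589 and 4537. The controls were nearly level, with a log2 mean of 1.05 ± 0.13, and the knockouts spread more widely, at -0.61 ± 0.72 (SD, n = 3 each). The difference was -1.66 (SE 0.35), or 3.17-fold. A brighter Loxl2 probe (A_52_P480351) read 28159, 26123 and 28681 in controls, while the knockouts read 8299, 15530.4 and 13326. The spots of knockout replicates 1 and 2 were marked as outliers there, so the probe was not fitted. With those spots kept, its difference was -0.93, smaller than at the other probe and again without overlap between the groups.

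Loxl3, which is needed for the palate and the spine during development, was dim and changed least among the brightest tested probes of the members. Its probe (A_51_P111315) gave 1256, 1026 and 1016 in controls and 283, 653 and 549.95 in knockouts. All knockouts were below all controls. The log2 mean was -2.61 ± 0.24 in controls, against -3.55 ± 0.50 in knockouts (SD, n = 3 each), a difference of -0.95 (SE 0.28), or 1.93-fold. An older synonym of this gene is Loxl2; the probe was assigned by its RefSeq accession, so these genes were not mixed.

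Loxl4 had 3 probes, and they did not give the same picture. The brightest (A_66_P107231) read 1472, 1965 and 1637 in controls, while the knockouts read 219, 765 and 676. The controls averaged -1.99 ± 0.13 on the log2 scale and the knockouts -3.50 ± 0.86 (SD, n = 3 each), a difference of -1.52 (SE 0.41), or 2.86-fold. A second probe designed on the same transcript (A_55_P2044143) gave 985, 1418 and 1092 in controls and 139, 327 and 409.6 in knockouts, with a difference of -1.84 (SE 0.34). At both of these the groups were apart. The third probe (A_52_P342526) is annotated to another Loxl4 transcript and was the dimmest of the family, with 191, 259 and 243 in controls and 97.7, 169.6 and 195 in knockouts. Knockout replicate 1 was not well above background there, knockout replicate 3 lay above control replicate 1, and the difference was -0.35 (SE 0.23).

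**Figure D1:**
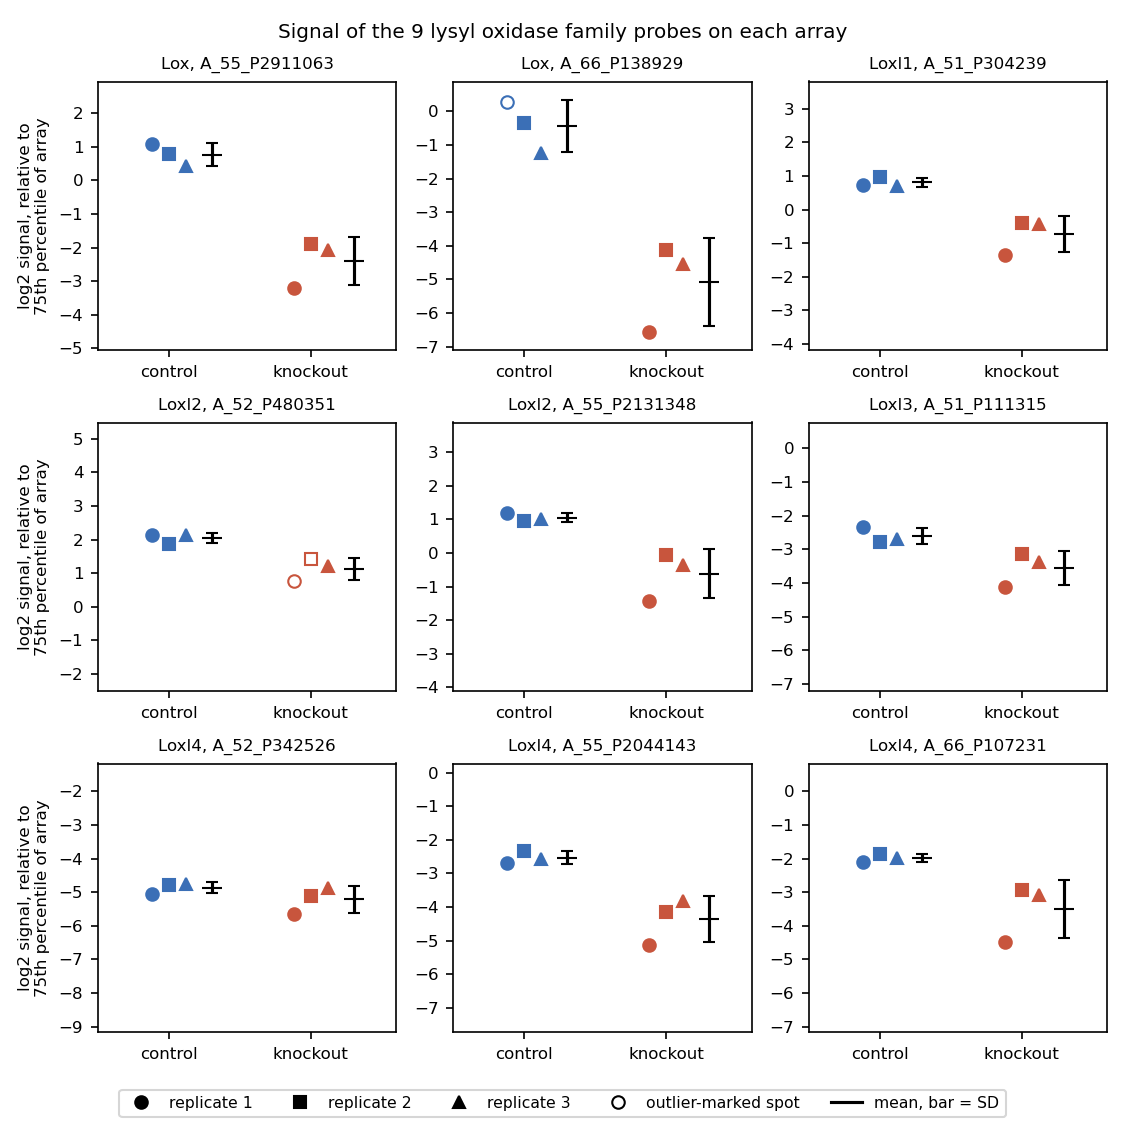
Log2 signal relative to the 75th percentile of the array (vertical axis, the same span in each panel) for the 9 probes of the family in control (blue) and knockout (red) colon; markers are single arrays, open markers are spots marked as outliers, and the bar is the mean with its SD over all 3 arrays, such spots included. The groups are apart in 8 panels and overlap at the Loxl4 probe A_52_P342526, and knockout replicate 1 (circle) is the lowest array in all 9.

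Over the family, 8 of 9 probes had every knockout below every control when outlier spots were kept, and so did 17.8% of the 35351 tested probes of the array and 19.2% of genes. This contrast chose the members, and nothing is read from the count. By size of the fall at the brightest tested probe of each of 16451 genes, Lox stood at place 55, Loxl2 at 363, Loxl1 at 428, Loxl4 at 438 and Loxl3 at 1156; Islr itself was at 140. With limma and a false discovery rate of 5%, 3.97% of tested probes were called (2.42% lower in the knockout), and 3.82% of genes by their brightest tested probe (2.47% lower and 1.35% higher). At an unadjusted p under 0.05 the shares of genes were 14.5% lower and 13.7% higher.

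How the arrays were ordered within a genotype did not enter the choice of the family. Knockout replicate 1 was the lowest knockout at all 9 probes, and knockout replicate 2 was the highest at 7 of them. Of the 6 arrays, knockout replicate 1 had the lowest 75th percentile (4910.5) and the smallest share of spots clearly above background (69.4%). Its share of outlier spots was the largest (16.0%). How often it was the lowest knockout over all probes of the array was not counted. Relative to the geometric mean of the controls, Lox was at 6.34%, 15.7% and 14.1% in knockout replicates 1, 2 and 3. The same values were 22.4%, 43.4% and 42.7% for Loxl1, and 17.9%, 46.3% and 37.9% for Loxl2. Loxl3 kept 35.1%, 68.4% and 58.0%, and Loxl4 at its brightest probe 17.7%, 52.1% and 46.4%. Islr was also lowest in knockout replicate 1. The controls had no such common order: control replicate 1 was the highest for Lox, Loxl2 and Loxl3 and the lowest for Loxl4. Without knockout replicate 1 the differences were -2.75 for Lox, -1.22 for Loxl1, -1.26 for Loxl2, -0.67 for Loxl3 and -1.02 for Loxl4.

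**Figure D2:**
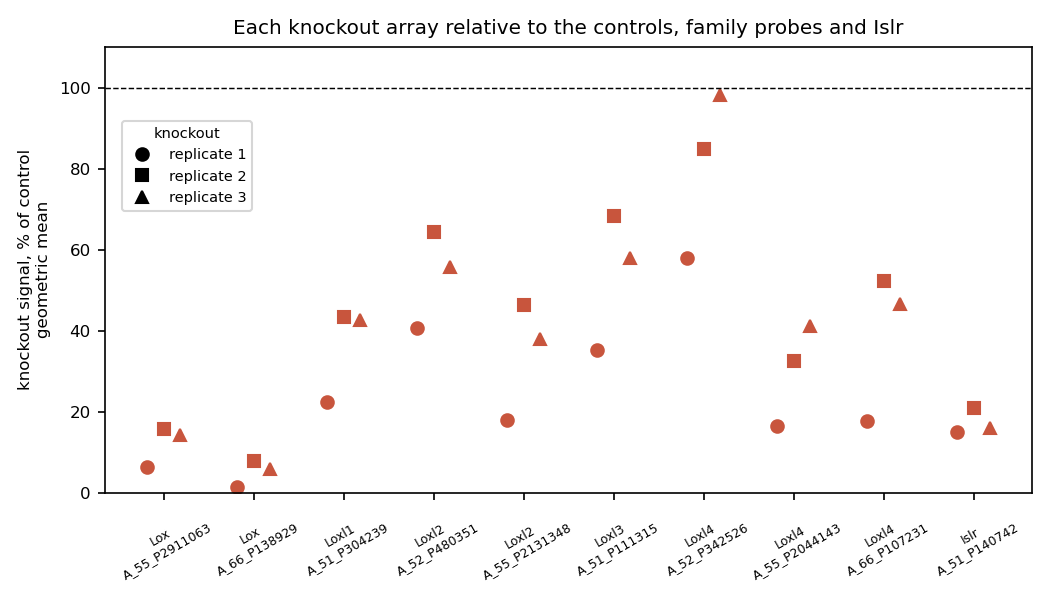
Signal of each knockout array as a percentage of the geometric mean of the 3 controls (vertical axis, from 0; dashed line at 100%) for the 9 family probes and Islr, outlier spots kept; marker shapes are knockout replicates 1 to 3. Replicate 1 is the lowest for every probe, and Lox at 6.34% to 15.7% lies below Loxl1 at 22.4% to 43.4%.

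The other parts of the cross-linking pathway were looked at through 8 lists of 95 genes, of which 85 could be tested. In all, 8 of the 85 were called lower in the knockout in limma (9.41%, against the 2.47% of all genes) and 1 was called higher. The median difference over these genes was -0.44, and over all tested genes it was 0.01. The lists were chosen with earlier results of these data known, so nothing is read from these shares and medians. None of the 85 fell by more than Lox, 7 fell by more than Loxl1, and 20 by more than Loxl3. Lox and Loxl1 were chosen for their fall, so nothing is read from this order.

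Fibrillar collagens are the main substrates of the family. Among 11 fibrillar collagen genes 9 were lower, with a median of -0.73, and 1 was called. This was Col5a3, a minor fibrillar collagen chain, whose controls read 20640, 21777 and 23823 and whose knockouts read 2252, 5767 and 6219 (-2.07, SE 0.34, limma adjusted p 0.0357). The chains of the main fibrils were not called: Col1a1 differed by -0.73 (SE 0.29, limma adjusted p 0.165), Col3a1 by -0.41 (SE 0.19, adjusted p 0.221) and Col1a2, without the outlier spot of knockout replicate 1, by -0.08 (SE 0.19, adjusted p 0.819). Col1a2 and Col3a1 are among the brightest probes of the array, with 1.27% and 2.47% of tested probes brighter. In the brightest 5% of probes 0.0566% were called and the median absolute difference was 0.17, against 3.14% and 0.30 between the 50th and 95th percentile of brightness. Lox (35.5% of probes brighter) and Loxl1 (25.4%) were in the latter range, and the part of brightness in these sizes was not tested.

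Of 16 elastic fibre genes 15 were lower, with a median of -0.88 and 3 calls. Emilin2, a glycoprotein of the elastin-associated emilin family, differed by -2.23 (SE 0.29, limma adjusted p 0.0260). Fbln2 differed by -1.16 (SE 0.22, adjusted p 0.0453) and Fbln5, the fibulin that tethers Loxl1 to elastic fibres, by -1.01 (SE 0.20, adjusted p 0.0468). The Fbln5 controls read 12155, 12208 and 10242 and the knockouts 3344, 5288 and 5887, and its groups were apart. Elastin itself, Eln, differed by -0.62 at its brightest probe (SE 0.23, adjusted p 0.148) and by -1.97 at a dimmer one (SE 0.48, adjusted p 0.0678). Fibrillin-1, Fbn1, the main microfibril protein, differed by -1.23 (SE 0.30, adjusted p 0.0686). Neither passed.

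Lysines must be hydroxylated and procollagens folded before cross-linking. In this list of 17 genes 16 were lower, with a median of -0.63, and Crtap, a partner of prolyl 3-hydroxylase, was called (-1.03, SE 0.20, limma adjusted p 0.0468). Plod2, the lysyl hydroxylase of the telopeptides that lysyl oxidases act on, differed by -1.27 but varied widely (SE 0.65, adjusted p 0.261). P4ha1, a prolyl hydroxylase subunit, differed by -0.63 (SE 0.15, adjusted p 0.0657) at its brightest probe and by -0.89 at another, which was called (SE 0.17, adjusted p 0.0441). For P3h1 the probes disagreed: the brightest gave -0.02 (adjusted p 0.958) and the other -1.71 (adjusted p 0.0300).

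Enzymes and scaffolds that process the propeptides made up a list of which 11 genes were tested, 9 of them lower, with a median of -0.52. The called gene was Adamts14, a procollagen N-proteinase (-1.88, SE 0.29, limma adjusted p 0.0329). Bmp1, which releases active Lox and Loxl1 from their propeptides, differed by -0.52 at its brightest probe (SE 0.18, adjusted p 0.125). Its other probes gave -1.21 (adjusted p 0.0441) and -0.03 (adjusted p 0.919), so the value depends on the probe. Fibronectin, Fn1, differed by -0.03 (SE 0.22, adjusted p 0.942) and periostin, Postn, by -0.16 (SE 0.25, adjusted p 0.726); both are scaffolds for Lox activation, and both values rest on 2 arrays per group, without the outlier spots of replicate 1. The Fn1 probe is also very bright, with 1.62% of tested probes brighter, and a dimmer Fn1 probe gave -0.60 (SE 0.27, adjusted p 0.215).

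Lysyl oxidases need copper to work. Of 9 copper supply genes tested 7 were higher, with a median of 0.23 and 0 calls in limma; at an unadjusted p under 0.05 there were 1 lower and 1 higher. The lower one was Steap2, a metalloreductase, at -0.91 (SE 0.28, limma adjusted p 0.0996), and its dimmer probe was called lower (-1.64, SE 0.31, adjusted p 0.0446). Atp7a, the pump that loads copper onto lysyl oxidases in the secretory pathway, differed by 0.46 (SE 0.24, limma adjusted p 0.271, without the outlier spot of knockout replicate 1).

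Among 14 upstream regulators 9 were lower, with a median of -0.10. Tgfb1, an inducer of Lox, was called (-1.49, SE 0.29, limma adjusted p 0.0468); its controls read 1844, 2943 and 1862 and its knockouts 407, 956 and 655. Another Tgfb1 probe gave -1.31 and was not called. Hif1a, through which low oxygen induces Lox, differed by 0.30 (SE 0.14, adjusted p 0.228). Smad4 differed by 0.34 at its brightest probe (SE 0.17, limma adjusted p 0.277, without the outlier spot of knockout replicate 1). At 2 of its other probes Smad4 was called higher (0.82, limma adjusted p 0.0446, and 1.04, limma adjusted p 0.0466).

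Of the other copper amine oxidases, Aoc2 and Aoc3 were tested and there were 0 calls in limma and 0 at an unadjusted p under 0.05; Aoc3, of smooth muscle and vessels, differed by 0.19 (SE 0.25, limma adjusted p 0.675). Aoc1, the diamine oxidase of gut epithelium, could not be fitted because its spots were outliers on 2 knockout arrays. With them kept the signals were 4259, 5172 and 11016 in controls and 27883, 16503 and 20386 in knockouts. A dimmer Aoc1 probe, with outlier spots in both groups, read 368, 507 and 1117 in controls and 7959, 2666 and 3643 in knockouts. In the fit that kept outlier spots, 1 gene of this list was called higher. Transglutaminases join proteins by another bond. Of 5 tested, Tgm3 of differentiated epithelium was called higher (4.41, SE 0.64, limma adjusted p 0.0302) and F13a1, the clotting factor subunit that macrophages also make, was called lower (-1.93, SE 0.34, adjusted p 0.0402). The broadly expressed Tgm2 differed by -0.16 (SE 0.17, adjusted p 0.588), and a dimmer Tgm3 probe by 1.09 (adjusted p 0.136).

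**Figure D3:**
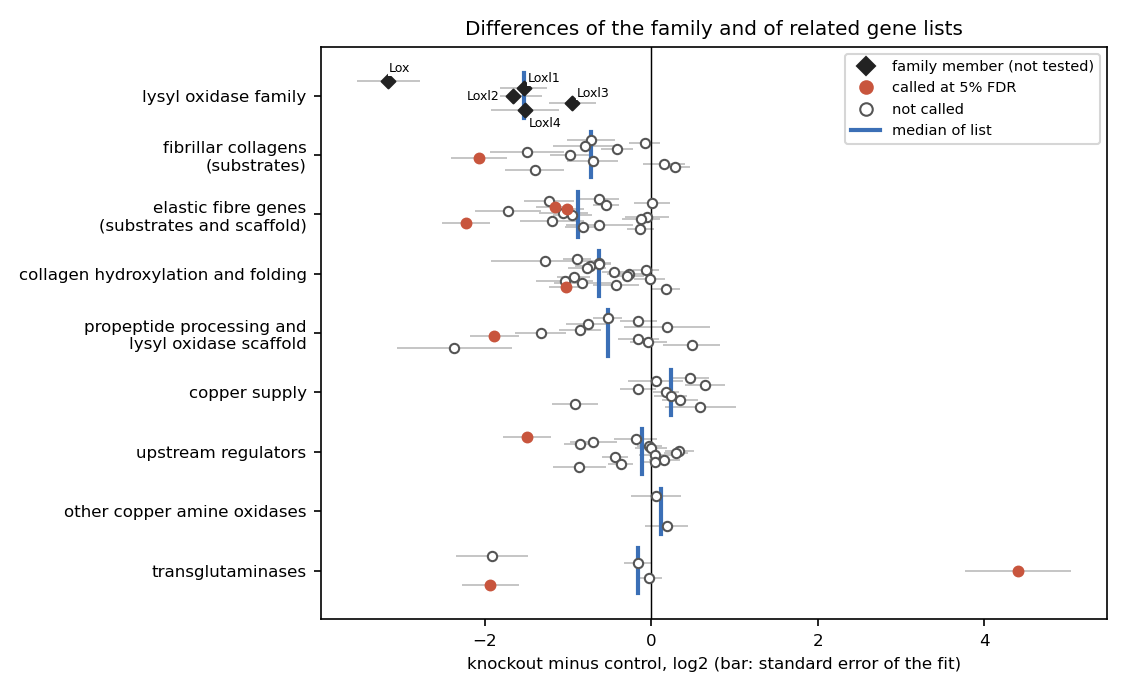
Knockout minus control difference on the log2 scale (horizontal axis) for the brightest tested probe of each gene; rows are the family, shown as untested diamonds, and the 8 related lists, where filled circles are genes called at a 5% false discovery rate in limma, open circles are genes not called, grey bars are standard errors of the fit and blue lines are medians. Lox, which was chosen for its fall, lies at -3.16, left of all genes of the 8 lists, and copper supply genes centre on 0.23.

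None of the 9 called genes was called in all 6 fits that left out an array. Fbln2, Fbln5 and Crtap were called in 0 of these fits, and the others in 1 to 3. Without control replicate 2, control replicate 3 or knockout replicate 3 limma called 0 genes of the lists in either direction; at an unadjusted p under 0.05 the lower genes numbered 31 of 79, 27 of 77 and 35 of 79 tested, and the higher ones 1, 2 and 1. Over all genes in the same fits 9.44%, 10.8% and 12.6% were lower at that threshold, and 9.02%, 11.1% and 10.3% higher. Without knockout replicate 1 there were 2 lower calls and without knockout replicate 2 there were 4, with 0 higher calls in both fits (0 and 6 at an unadjusted p under 0.05). Without control replicate 1 there were 7 lower and 1 higher, but the lower ones were partly other genes. Fbln2, Fbln5, Crtap and Tgfb1 were not called in that fit, and 1 copper supply gene was called lower. Another probe was called for 8 of the listed genes, and 7 of these were not called by their brightest probe.

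Markers of other cell types were read beside the family. Among fibroblast markers, the main source of lysyl oxidases, 10 of 11 were lower, with a median of -0.66, and Pdgfrb was called (-1.17, SE 0.20, limma adjusted p 0.0395), a call that was lost in each of the 6 fits that left out an array. The summed signal of 13 fibroblast genes, in multiples of the array's 75th percentile, was 40.8 to 44.5 in controls and 22.8 to 32.6 in knockouts. In knockout replicates 1, 2 and 3 it was at 53.3%, 76.0% and 75.5% of the control mean, beside 6.34%, 15.7% and 14.1% for Lox and 22.4%, 43.4% and 42.7% for Loxl1. Bright probes weigh most in such a sum, and it is not the same measure as a single probe. Among the fibroblast genes, Dcn (1.19% of tested probes brighter) differed by -0.25 and Lum (9.63% brighter) by -0.83. The part of fibroblast content in the family's values was not tested.

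Endothelial markers summed to 12.9 to 14.4 in controls and 3.92 to 8.60 in knockouts (9 of 9 lower, 0 called in limma, 8 lower at an unadjusted p under 0.05). Colon epithelium markers, at 22.1 to 75.7 in controls and 87.5 to 115.6 in knockouts, were all higher (10 of 10, 0 called, 3 at an unadjusted p under 0.05). Smooth muscle genes, whose cells can also make Lox, were higher as well, at 52.3 to 65.3 in controls and 72.4 to 85.4 in knockouts (8 of 8, 0 called, 2 at an unadjusted p under 0.05). Knockout replicate 1, the array lowest in every family probe, had the lowest fibroblast and endothelial sums and the highest epithelial and smooth muscle sums of the 6 arrays. Neutrophil markers had 6 of 8 genes called lower and a median of -3.30, though none of the 6 was called in every fit that left out an array, while their sum, led by a few very bright probes, went from 31.7 to 35.1 in controls to 26.6 to 28.8 in knockouts. Macrophage sums were 24.0 to 33.3 in controls and 19.1 to 23.5 in knockouts (7 of 8 lower, 0 called, 4 at an unadjusted p under 0.05). Sums of B and plasma cell genes (14.6 to 26.5 in controls and 10.8 to 19.4 in knockouts) and of T cell genes (3.66 to 6.65 and 3.80 to 5.96) overlapped between the genotypes. Skeletal muscle sums overlapped as well (2.22 to 3.01 and 2.61 to 4.88), but 9 of 11 genes were higher and 2 were called. One was the fast myosin Myh2, not well above background on any control array. Taking for each control array its lowest signal well above background, Myh2 was at least 4.61-fold higher in the knockout. It was fitted only because its signal cleared background on the knockout arrays, so its call is not taken as support. The other was Myh1 (2.07, SE 0.19, limma adjusted p 0.0160), called in 4 of the 6 fits that left out an array. Enteric nervous system sums were 12.7 to 13.3 in controls and 9.48 to 11.6 in knockouts. None of the markers on the array was below background on every array, and the part of these cell types in the family's values was not tested.

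**Figure D4:**
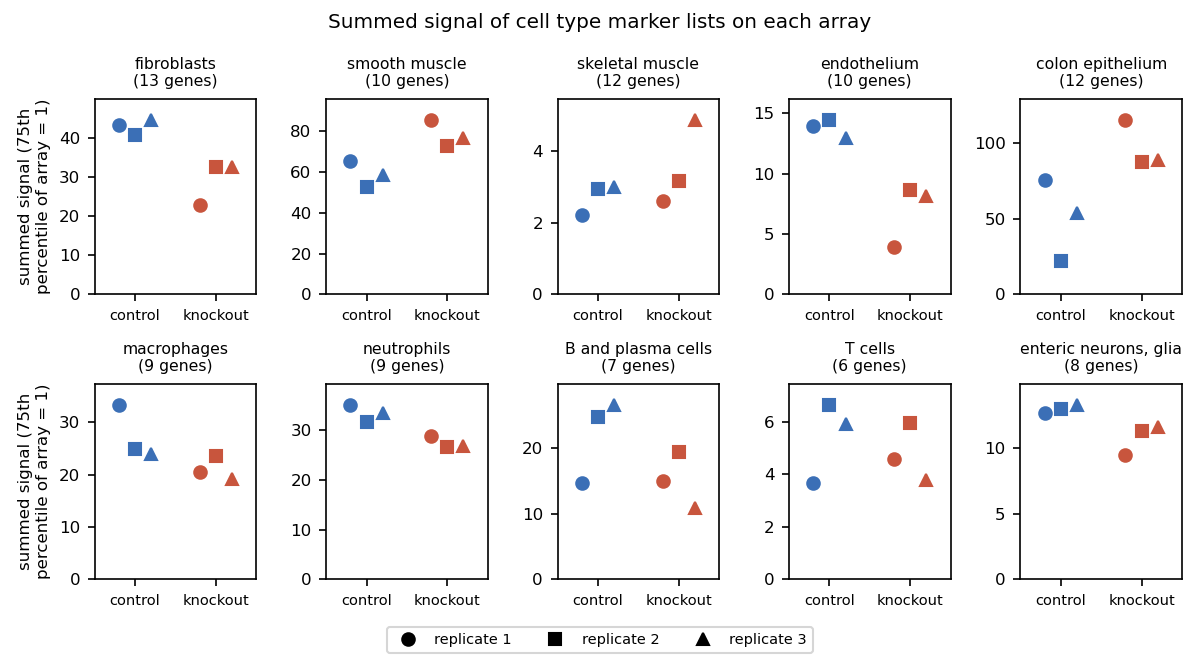
Summed signal of 10 cell type marker lists on each array, in multiples of the 75th percentile of that array (vertical axis, from 0); blue is control, red is knockout, marker shapes are replicates, and outlier spots are kept. Fibroblast sums of 22.8 to 32.6 in knockouts lie below 40.8 to 44.5 in controls, and colon epithelium sums lie above.

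Genes that followed the family most closely across the arrays were sought among 17862 others by Pearson correlation over the 6 arrays, a measure of likeness that the gap between the genotypes dominates and that was not tested. Closest to Lox were Scg3, Chst15, Med12l, Igfbp4 and Trpv4, with correlations of 0.997 to 0.999. With each group's mean subtracted, these genes had correlations of 0.966 to 0.995 with Lox. Their differences were of very different size: Igfbp4, which binds insulin-like growth factors, had -2.45 (without the outlier spot of control replicate 1), Chst15, a chondroitin sulfotransferase, -1.25, Med12l -1.20, the calcium channel Trpv4 -0.47 and the granin Scg3 -0.30. Closest to Loxl1 were Nradd, 2700081O15Rik, Lats2, Sh3pxd2b and Armcx4, with correlations of 0.999 to 1.000, and of 0.992 to 0.998 with each group's mean subtracted. Of these, Sh3pxd2b, an adaptor of podosomes, differed by -2.07, Nradd by -1.36 and the Hippo pathway kinase Lats2 by -0.85, without the outlier spot of control replicate 1; 2700081O15Rik and Armcx4 could not be fitted and differed by -1.22 and -1.50 with outlier spots kept.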

How the data were processed

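Colon RNA of 3 control and 3 Islr knockout mice was measured on 1 Agilent array each (design 074809), read with Feature Extraction 11.5.1.1, per the file headers; the submitters' processing notes name version 10.7. The deposited processed signal is a linear intensity, background-subtracted and detrended within each array, and not scaled between arrays, as the deposited file headers record. The labels name Cy3, whereas the files hold the red channel, which was used. Signals were divided by the 75th percentile of the 59305 non-control spots of an array and log2 was taken. Outlier spots were set missing and the spots of a probe averaged. Probes whose signal exceeded background clearly on each array of a group, with at least 2 usable values per group, were fitted (35351 of 56605) with limma 3.58.1 in R 4.3.3, two-sided, genotype the only term, Benjamini-Hochberg over all tested probes, called at 0.05. Of the 9 family probes 8 passed. The procedure was tested on simulated data. The number of arrays limits the precision, and an exact permutation test could not go below 0.1.

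Probes were named by RefSeq accession in GRCm38.p6 (33767 of 56605 matched); the files place probes on mm9, so no gene coordinates are taken from one for the other. The brightest tested probe stood for a gene. Named were Islr, the members, called genes of the lists (at most 4 per list, by size), 16 pathway genes named in advance and the 5 genes most like Lox and Loxl1; Col1a2, P3h1, Aoc2 and second probes were chosen after their values were seen. So were Steap2, Smad4, Dcn, Lum and the called cell markers that are named. The members and lists were chosen with earlier results of these data known. Alternatives were normexp background correction (offset 50), quantile normalization, median centring, outlier spots kept, no filter on dim probes, array weights, the deposited value table (also intensities), other probes, and each array left out.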

Additional observations from a re-analysis of the deposited data

How the results depend on the processing

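The differences of the 5 members kept their sign in all 68 values recomputed under the alternatives, and 66 moved by less than the pooled SD between replicates. The others were probes: Lox at -4.28 by its second probe and Loxl4 at -0.35 by its dimmest. The brighter Loxl2 probe was not fitted and is not among the 68. With outlier spots kept it gave -0.93, a gap of 0.74 from the fitted Loxl2 probe, beside a pooled SD of 0.52. With 1 array left out, Lox ranged from -3.40 to -2.75, Loxl1 from -1.69 to -1.22, Loxl2 from -1.94 to -1.26, Loxl3 from -1.15 to -0.67 and Loxl4 from -1.80 to -1.02. At these probes every knockout lay below every control, so leaving out an array could not reverse a sign. Counts of calls were less stable. Over the whole array 1403 probes were called (39.1% higher), 855 of them lower. The count was 2558 with normexp (51.1% higher), 2185 with quantile normalization (1421 lower), 2249 with median centring (1452 lower), 484 without the filter on dim probes (321 lower) and 8119 with array weights (50.7% higher, 4003 lower). It ranged from 40 to 2114 with an array left out, and the lower ones from 36 to 950. Lower calls in the lists numbered 8, and 14 with normexp, 15 with quantile normalization, 14 with median centring, 1 without the filter and 31 with array weights; higher calls numbered 1, and 2 with outlier spots kept or array weights. With an array left out, lower calls ranged from 0 to 7 and higher ones from 0 to 1. The cause of these shifts was not tested. No paired analysis was possible because the labels carry no replicate numbers; those used here follow the order of the samples and pair none of them. Depth is set by signal over background: the second Lox probe and the dimmest Loxl4 probe were near background in knockout replicate 1.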

Other observations

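Loxl1 and Islr are neighbours on mouse chromosome 9, with 3 protein-coding genes between them (Islr2, Pml and Stoml1) in the order of GRCm38.p6. Looked at after the values were known, the 10 protein-coding genes on each side of Islr held 14 tested genes besides Loxl1. Of these, 7 lay lower in knockouts and 7 higher, around a median of 0.03. There were 0 calls in limma, and at an unadjusted p under 0.05 1 lower and 2 higher. Between Islr and Loxl1, Islr2 differed by -0.63 (SE 0.44), Pml by 0.47 (SE 0.24) and Stoml1 by -0.38 (SE 0.20). On the far side of Loxl1, Tbc1d21 differed by 1.05 (SE 0.22, limma adjusted p 0.0523) and Insyn1 by -0.96 (SE 0.34). The largest difference was that of Cyp1a1, at 2.87 (SE 0.91, limma adjusted p 0.108).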
